A study of Mus musculus with 4 samples.

Results

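Chromatin accessibility at the genes of Wnt signalling was compared between mesenchymal stem cells (MSCs) from the bone of old and of young mice. The genes were 17 Wnt ligands, 12 receptors, 9 secreted antagonists and 6 intracellular effectors, 44 in all. A peak was assigned to a gene where it overlapped the gene or the 5 kb upstream of its start, which selected 208 of the 117282 peaks in the table (68 at ligands, 34 at receptors, 35 at antagonists and 71 at effectors). Accessibility was measured by ATAC-seq, in which a transposase cuts and tags open DNA.

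The old group was 2 samples from mice of 18 to 22 months and the young group 2 samples from mice of 3 to 5 months. According to the methods, written for mice of 3 to 5 months, the animals were wild-type C57BL/6N males, and cells grown out from bone were sorted as CD45-/TER-119-/Sca-1+/CD140a+. All 4 samples were kept at 2% O2 and the labels name no genetic change or treatment. The labels do not say whether the samples of a group came from separate animals, so the p-values measure only the spread between these samples, which may be technical.

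Wnt proteins are secreted lipid-modified ligands that bind Frizzled receptors together with the co-receptors Lrp5 and Lrp6. In the canonical branch, binding protects beta-catenin from degradation, and beta-catenin then acts with the TCF/LEF factors on target genes such as Axin2. Canonical Wnt signalling favours osteoblast formation from MSCs, and secreted antagonists limit it, either by binding the ligands (the Sfrp family, Wif1) or by binding the co-receptors (Dkk1, Sost).

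The files held counts scaled to each library's total, and 3 counts at a peak gave a value of 0.921 to 1.06. Totals were 28259470 to 32559794 counts per sample if the scale was 10000000, which was assumed and not tested. Peaks on the mitochondrial chromosome took 6.52% of the summed values in old replicate 2 and 13.5% to 15.7% in the other samples. Values are given after division by RLE factors (each sample's median ratio to the geometric mean of the samples), which sets the typical peak to no change. Before this scaling, the median log2 fold change (old minus young) over all peaks was -0.27, so higher and lower are meant relative to the typical peak. All 12 MSC markers, among them Ly6a, Pdgfra and Prrx1, had a promoter peak, and their summed value per kb was 243 and 297 in the old and 242 and 234 in the young samples. The sum over the 4 osteoblast markers, all with a promoter peak, was 69.5 and 80.5 in the old and 64.5 and 58.5 in the young samples. Of these, Runx2 had 33.8 and 45.2 per kb in the old and 30.4 and 29.9 per kb in the young samples. The groups overlapped at Sp7, Bglap and Ibsp. Of 4 adipocyte markers, 3 had a promoter peak, with sums of 65.6 and 70.2 in the old and 64.1 and 65.5 in the young samples. The blood genes Ptprc, Cd3e, Itgam and Hba-a1 had none. Spi1 and Csf1r, genes of myeloid cells, did have one, with 15.3 and 12.1 per kb in the old and 19.8 and 12.7 per kb in the young samples at Spi1, and 17.5 and 26.9 per kb in the old samples at Csf1r, with both young samples between them. For the endothelial list, 3 of 4 genes had a promoter peak (not Cdh5), with sums of 49.5 and 52.3 in the old and 59.6 and 59.3 in the young samples. The lower sum in old samples came from Tek (log2 fold change -0.73), while Kdr was higher (0.29) and Pecam1 changed little (-0.050). The part of these differences in the results at Wnt genes was not tested.

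At an adjusted p under 0.01 (limma on log2 values, Benjamini-Hochberg over all peaks), 0 of the 208 peaks at Wnt genes differed between old and young MSCs, where 0.0563% of all peaks did. At an adjusted p under 0.05, which 1.12% of all peaks passed, 1 peak differed, and it lay at the end of Sfrp1, a secreted antagonist. Without adjustment, 11 peaks (5.29%) had a p under 0.05 and were lower in old MSCs, against 8.87% of all peaks, and 23 peaks (11.1%) had a p under 0.05 and were higher, against 7.49%. Of the 11 lower peaks, 4 were at Sfrp1, and the others were at Wnt16, Wnt5a, Wnt9a, Fzd3, Tcf7l1 and Tcf7l2. All 208 peaks entered the test without a filter on low values, and 173 of them were at or above the lower quartile of all peaks. The 23 higher peaks were spread over 11 genes, which were Wnt3, Wnt4, Wnt5b, Wnt7a, Wnt7b, Lrp5, Lrp6, Dkk3, Lef1, Tcf7l1 and Tcf7l2.

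The peak past the adjusted p of 0.05 was chr8:23446101-23454900 (mm10), 8800 bp wide, over the last coding exon of Sfrp1 and 5268 bp of sequence past the end of the gene (chr8:23411502-23449632, plus strand). Sequence is shown from the GRCm38 reference genome of RefSeq, 5′ to 3′ on the Sfrp1 strand. The first stretch is the 300 bases at the centre of this peak (chr8:23450351-23450650), next come the 200 bases of the peak outside UTRs that held the most TCF/LEF words (chr8:23449956-23450155), and last the 250 bases before the Sfrp1 start (chr8:23411252-23411501). The last pair, and the sequences at other genes, were chosen after the values were seen. Capitals mark, on either strand, the words made of CTTTG followed by AA, by AT, by TA or by TT, core forms of the sequence bound by TCF/LEF factors.
Sfrp1 peak centre: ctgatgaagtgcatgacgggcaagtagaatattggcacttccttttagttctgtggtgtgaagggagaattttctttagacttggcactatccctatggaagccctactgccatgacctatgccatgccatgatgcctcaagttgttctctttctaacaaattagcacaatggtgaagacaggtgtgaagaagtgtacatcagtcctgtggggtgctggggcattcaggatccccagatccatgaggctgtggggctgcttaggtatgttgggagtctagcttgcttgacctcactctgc
Sfrp1 peak words: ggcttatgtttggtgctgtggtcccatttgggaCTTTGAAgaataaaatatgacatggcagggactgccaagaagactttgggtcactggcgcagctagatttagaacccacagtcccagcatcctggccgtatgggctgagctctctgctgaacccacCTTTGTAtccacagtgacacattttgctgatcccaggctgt
Sfrp1 upstream: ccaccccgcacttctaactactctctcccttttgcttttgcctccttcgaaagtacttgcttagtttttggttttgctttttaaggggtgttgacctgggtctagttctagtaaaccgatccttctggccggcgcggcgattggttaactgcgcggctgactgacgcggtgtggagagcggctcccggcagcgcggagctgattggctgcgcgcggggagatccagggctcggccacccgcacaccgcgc
The whole peak held 9 words in its 8800 bp, where all peaks held 0.839 words per kb. Of these 9 words, 2 stood in the stretch chosen for them, while the centre and the upstream stretch held 0. A word occurred in 21.3% of the central 300 bases of all peaks at least that wide, and in 14.3% of the 250 bases before all protein-coding genes.

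Sfrp1, which held more of the 11 lower peaks than any other gene, encodes a secreted Frizzled-related protein that binds Wnt ligands outside the cell. At the peak over its last exon, the scaled value was 103 and 79.8 in the 2 old samples and 181 and 181 in the 2 young samples. The old samples were thus both the lower ones, and the young mean was 1.98-fold the old mean. The log2 fold change was -0.99 (SE 0.17, adjusted p = 0.0141). It lay between -1.18 and -0.80 when each sample was left out in turn, and was -0.99 without young replicate 1 and also without young replicate 2. With variances moderated without a trend and without robustness, the adjusted p was 0.148.

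The adjoining intronic peak, chr8:23444901-23446100, was weaker, with 2.14 and 3.94 in the old and 10.9 and 9.45 in the young samples. Its young mean was 3.34-fold its old mean, and the log2 fold change of -1.50 (SE 0.37) had an adjusted p of 0.0565. At the Sfrp1 promoter peak, chr8:23407501-23414100, values were 138 and 97.4 in the old and 166 and 165 in the young samples, with a log2 fold change of -0.51 (SE 0.18, adjusted p = 0.15) that was -0.25 without old replicate 2 and -0.76 without old replicate 1. Old replicate 2 was the lowest at the promoter and at the last exon, whereas old replicate 1 was the lowest at the intronic peak between them. The wide intronic peak chr8:23428301-23438600 showed 107 and 84.3 in the old and 127 and 122 in the young samples. Its log2 fold change was -0.38 (SE 0.17, adjusted p = 0.285), in the same direction as those at the end of the gene.

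In all, 8 peaks lay at Sfrp1, of which 7 were lower in old MSCs and 6 had both old samples below both young ones. This order of the groups was seen at 24.2% of all peaks, and at 33 of the 208 peaks at Wnt genes (15.9%). Only the peak chr8:23425201-23426800 in the middle of the gene ran the other way, with 13.3 and 12.4 in the old and 10.6 and 10.9 in the young samples. A 100 bp peak, chr8:23438701-23438800, held 0 counts in both old samples and 3 and 2 counts in the young samples, which is at the limit of detection. Summed over its peaks, Sfrp1 had 414 and 322 in the old and 557 and 545 in the young samples (p = 0.33 by an exact two-sided permutation test, which 2 against 2 cannot go below). The log2 fold change of this sum was -0.59 (SE 0.14), the lowest of the 44 genes, and its adjusted p over the 17308 protein-coding genes with a peak was 0.319. At an adjusted p under 0.01, 0 of the 44 genes differed by their sums, where 0.0116% of all genes did.

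**Figure D1:**
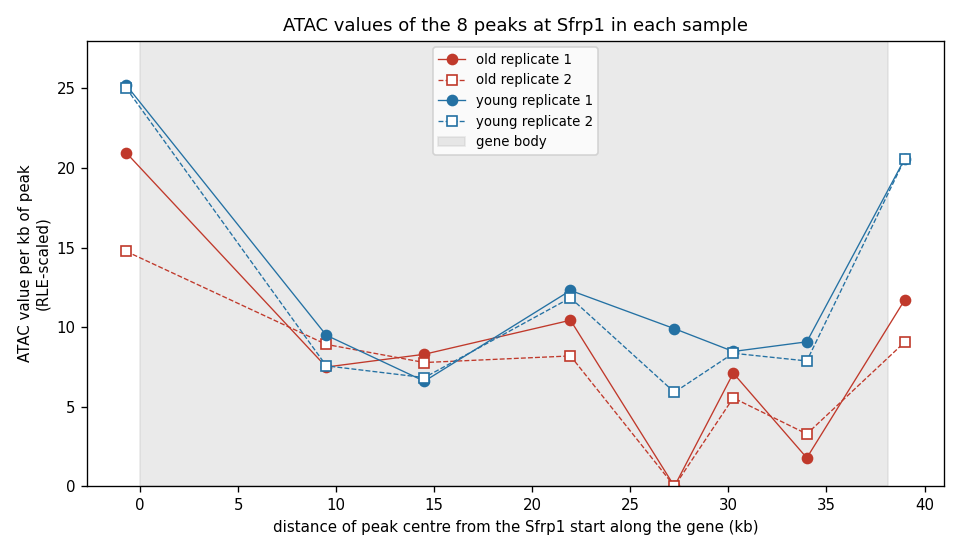
ATAC value per kb of peak (RLE-scaled) at the 8 peaks of Sfrp1, against the distance of the peak centre from the gene start in kb, in old (red) and young (blue) samples, with replicate 1 as filled circles and replicate 2 as open squares. The last peak stands at 11.7 and 9.07 per kb in the old and at 20.6 and 20.6 per kb in the young samples, and the gap between the groups is small in the first part of the gene body.

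Among the other antagonists, values of the groups lay closer together. Wif1, which binds Wnt ligands directly, had the densest promoter peak of this class by the mean of the young samples, with 35.4 and 38.5 per kb in the old and 39.6 and 35.0 per kb in the young samples. The promoter peak of Sfrp4, a relative of Sfrp1, had 43.6 and 38.8 per kb in the old and 33.6 and 37.5 per kb in the young samples. At Sfrp4 the groups did not overlap, with old MSCs higher, yet the log2 fold change of 0.21 (SE 0.16) had an adjusted p of 0.556. Sfrp2, another member of the family, had a promoter value of 21.6 and 18.0 per kb in the old and 19.0 and 16.7 per kb in the young samples, so its groups overlapped. At the promoter of Dkk1, which blocks Lrp5 and Lrp6, values were low in every sample. They were 8.95 and 11.6 per kb in the old and 8.40 and 7.52 per kb in the young samples. Of the 7 peaks at Dkk3, a divergent member of the Dkk family, 6 were higher in old MSCs, whereas 3 of the 4 at Dkk2 were lower. The direction at Dkk3 came from old replicate 2, with medians of 0.44 and 0.47 against young replicates 1 and 2. For old replicate 1 the Dkk3 medians were -0.065 and 0.017. Sost, the osteocyte-secreted inhibitor of Lrp5 and Lrp6, was the gene of the 44 without a promoter peak, and its 3 peaks lay upstream and over a coding exon. Over the 35 antagonist peaks the median was 0.094 on the log2 scale, against 0.20 over the 27 peaks at antagonists other than Sfrp1. The first of these medians turned to -0.027 without old replicate 2 and was 0.031 without young replicate 2.

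The 17 ligand genes held 68 peaks, of which 49 were higher and 19 lower in old MSCs, and the median of their log2 fold changes was 0.21 (0.13 without young replicate 2). In 28 of them both old samples were above both young samples, an order seen at 23.2% of all peaks. Summed over all ligand peaks, the values were 3014 and 3193 in the old and 2951 and 2859 in the young samples (p = 0.33 by the exact permutation test). None of the ligand peaks passed an adjusted p under 0.05.

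Wnt7b, a ligand known to promote bone formation, had 9 peaks, 8 of them higher in old MSCs. In 5 of them both old samples were above both young ones, an order seen at 23.2% of all peaks. Its promoter peak at the inner start (chr15:85574101-85579000) had 62.1 and 52.5 in the old and 38.3 and 32.8 in the young samples. The log2 fold change there was 0.67 (SE 0.21, adjusted p = 0.117). At the outer start (chr15:85580401-85584000), 43.7 and 50.1 in the old overlapped with 44.6 and 35.1 in the young samples. The difference between old and young was thus larger at the inner start, although the 2 differences were not tested against each other. In the intronic peak chr15:85559701-85560700, values were 10.3 and 11.5 in the old and 5.94 and 4.43 in the young samples, with a log2 fold change of 0.95 (SE 0.33, adjusted p = 0.158). Its central 300 bases (chr15:85560051-85560350, shown on the minus strand, that of Wnt7b) held 1 TCF/LEF word, in capitals.
Wnt7b intronic peak: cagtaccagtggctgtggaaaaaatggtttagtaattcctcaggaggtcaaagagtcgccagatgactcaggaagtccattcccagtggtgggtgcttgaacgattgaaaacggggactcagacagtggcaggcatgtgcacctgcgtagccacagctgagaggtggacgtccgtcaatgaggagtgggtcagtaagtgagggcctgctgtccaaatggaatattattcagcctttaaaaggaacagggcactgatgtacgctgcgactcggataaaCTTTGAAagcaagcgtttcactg
Summed over its 9 peaks, Wnt7b had the highest log2 fold change of the 44 genes, 0.40 (SE 0.14, adjusted p = 0.54).

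Wnt4, a ligand of both canonical and non-canonical branches, showed the same direction at all 5 of its peaks, with a median log2 fold change of 0.62. At the peak over its 3′ UTR (chr4:137297601-137299500), values were 24.4 and 29.4 in the old and 14.2 and 16.5 in the young samples. The log2 fold change there was 0.77 (SE 0.26, adjusted p = 0.137). At the Wnt4 promoter the groups overlapped, with 46.7 and 42.2 in the old and 49.2 and 39.6 in the young samples and a log2 fold change of 0.01 (SE 0.21). Wnt7a, a close relative of Wnt7b, had an intronic peak (chr6:91372601-91373500) with 13.7 and 16.1 in the old and 6.27 and 7.97 in the young samples. Its log2 fold change was 0.97 (SE 0.31, adjusted p = 0.117), while the groups overlapped at the Wnt7a promoter.

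Wnt16, a ligand expressed by osteoblast-lineage cells and known for its effect on cortical bone, went the other way. Its promoter peak (chr6:22287601-22290100) had 44.1 and 31.9 in the old and 60.4 and 67.9 in the young samples. The groups did not overlap, with a log2 fold change of -0.76 (SE 0.22, adjusted p = 0.0865). This was the largest difference at any promoter of the 44 genes in either direction. At Wnt6, whose promoter was the densest of the ligands by the mean of the young samples, 26.0 and 20.8 per kb in the old stood below 27.9 and 26.9 per kb in the young samples, but the adjusted p was 0.536 and the log2 fold change of -0.24 was -0.067 without old replicate 2. Wnt5a, the main ligand of the non-canonical branch, had a lower peak over its 3′ UTR (chr14:28524801-28526300) with 18.8 and 11.8 in the old and 21.8 and 24.2 in the young samples. That difference had a log2 fold change of -0.59 (SE 0.28, adjusted p = 0.3), which was -0.26 without old replicate 2 and -0.91 without old replicate 1, whereas the Wnt5a promoter overlapped between the groups with 165 and 216 in the old and 169 and 163 in the young samples. An intronic 300 bp peak of Wnt9a had 1 and 4 counts in the old and 19 and 15 counts in the young samples. With a log2 fold change of -1.82 (SE 0.46, adjusted p = 0.0583), it was the most negative of the 208 peaks, on few counts, and it was named after its values were seen.

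The promoters of the classical canonical ligands were close between the groups. At Wnt3a, values were 112 and 121 in the old and 88.1 and 105 in the young samples (log2 fold change 0.27, SE 0.17, adjusted p = 0.453). The Wnt1 promoter had 75.3 and 72.8 in the old and 67.3 and 54.0 in the young samples (log2 fold change 0.29, SE 0.19, adjusted p = 0.481). Both had old samples above young ones, by less than the test could separate from the spread between samples. Wnt10b, which favours bone over fat formation, had 133 and 163 in the old and 149 and 128 in the young samples, and these overlapped. Wnt5b held the most peaks of any ligand, 17, of which 11 were higher and 6 lower in old MSCs (median log2 fold change 0.21). This direction came mainly from old replicate 2, with medians of 0.27 and 0.25 against young replicates 1 and 2. For old replicate 1 the Wnt5b medians were 0.059 and 0.038.

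**Figure D2:**
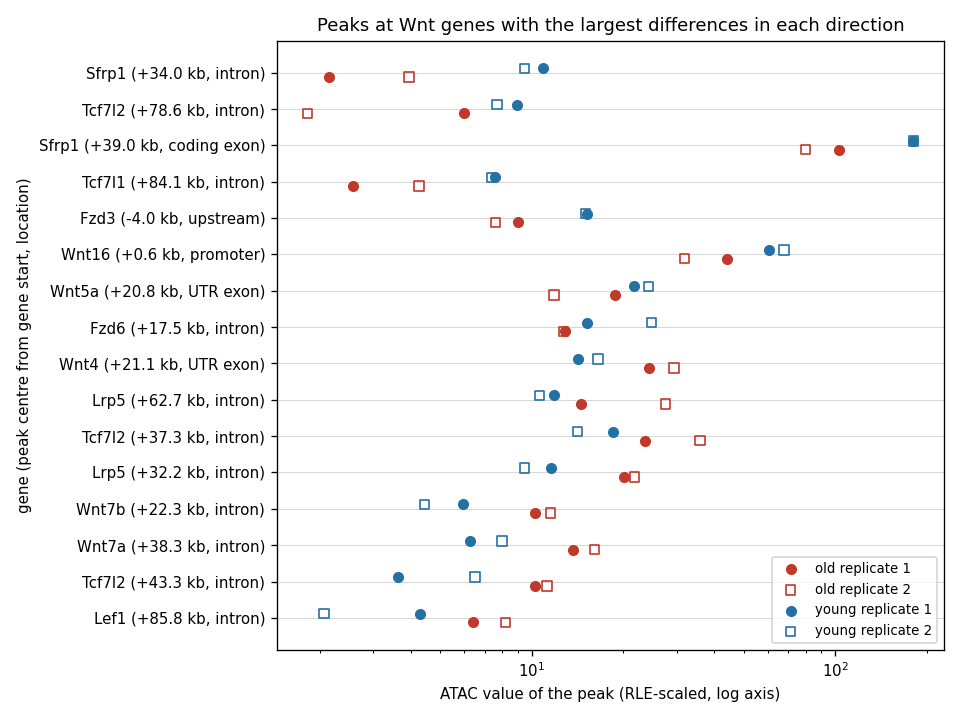
ATAC values (RLE-scaled, log axis) in the 4 samples at the 8 peaks with the most negative and the 8 with the most positive log2 fold change among peaks at Wnt genes with a mean value of at least 5 and the same direction in every old-to-young pairing of samples (4 pairs). In each line the old (red) and young (blue) points are separated, from Sfrp1 with 2.14 and 3.94 against 10.9 and 9.45 at the top to Lef1 with 6.42 and 8.19 against 4.29 and 2.07 at the bottom.

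Receptor genes differed in how their accessibility was laid out. Of the 10 Frizzled genes, 8 had a single wide promoter peak over a short gene, with a mean in young MSCs from 8.20 per kb at Fzd10 to 58.9 per kb at Fzd5. Fzd5 had 55.2 and 58.8 per kb in the old and 60.2 and 57.7 per kb in the young samples, the highest of the 44 genes in the young samples. Fzd1 followed among the receptors with 37.2 and 43.2 per kb in the old and 45.0 and 42.5 per kb in the young samples. In both genes the groups overlapped, and their log2 fold changes were -0.05 (SE 0.13) and -0.13 (SE 0.15).

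At Fzd3, a receptor known from planar cell polarity, 2 of 3 peaks were lower in old MSCs. The upstream peak chr14:65266101-65266900 had 8.99 and 7.58 in the old and 15.2 and 15.1 in the young samples, with a log2 fold change of -0.80 (SE 0.30, adjusted p = 0.181). This peak lies at the promoter of the neighbouring gene Fbxo16, so the value cannot be assigned to Fzd3 alone. The Fzd3 promoter itself had 51.8 and 51.9 in the old and 78.5 and 62.3 in the young samples (log2 fold change -0.43, SE 0.20, adjusted p = 0.297). Fzd6, a receptor that can restrain the canonical branch, had an intronic peak (chr15:39023001-39024100) with 12.8 and 12.7 in the old and 15.2 and 24.8 in the young samples, where the log2 fold change of -0.57 (SE 0.29) was -0.23 without young replicate 2 and -0.91 without young replicate 1.

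The co-receptor genes are long and held more peaks, 10 at Lrp5 and 11 at Lrp6. Of the Lrp5 peaks 8 were higher in old MSCs (median log2 fold change 0.36). This direction came from old replicate 2, with medians of 0.66 and 0.95 against young replicates 1 and 2. For old replicate 1 these medians were -0.069 and -0.037. The intronic peak chr19:3653301-3655400 had 20.1 and 21.8 in the old and 11.6 and 9.45 in the young samples (log2 fold change 0.94, SE 0.28, adjusted p = 0.0928). Its old mean was 2.00-fold the young mean, with both old samples above both young ones, an order that the rule naming this peak required. A second intronic peak, chr19:3623201-3624500, had 14.6 and 27.6 in the old and 11.9 and 10.6 in the young samples, so that its log2 fold change of 0.79 (SE 0.31, adjusted p = 0.208) was 0.35 without old replicate 2 and 1.23 without old replicate 1. At the Lrp5 promoter the samples overlapped, with 30.0 and 49.5 in the old and 34.3 and 34.2 in the young samples. The Lrp6 promoter overlapped as well, with 83.5 and 118 in the old and 89.8 and 112 in the young samples, and of its 11 peaks 6 were higher and 5 lower. Over all 34 receptor peaks the median was 0.098 on the log2 scale, which turned to -0.082 without old replicate 2 and was 0.27 without old replicate 1.

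Effectors of the pathway held 71 peaks with a median log2 fold change of 0.15, 47 higher and 24 lower in old MSCs. The median was 0.064 without young replicate 2, 0.10 without old replicate 2 and 0.27 without old replicate 1. Axin2, a scaffold of the beta-catenin destruction complex and a widely used canonical target, had a promoter peak (chr11:108919701-108923000) of 95.9 and 94.0 in the old and 108 and 101 in the young samples. The old samples were slightly the lower ones there, with a log2 fold change of -0.14 (SE 0.17, adjusted p = 0.732). In its first part the gene carried a further intronic peak (chr11:108927001-108929600), picked among the Axin2 intronic peaks for having the most TCF/LEF words. It held 5 words in 2600 bp, where all peaks held 0.839 words per kb. Being chosen by its words, its count is not a result about Axin2. Of these 5 words, 2 lie in the 200 bases with most words (chr11:108928375-108928574, plus strand), shown because Axin2 is a target of TCF/LEF factors.
Axin2 intronic peak: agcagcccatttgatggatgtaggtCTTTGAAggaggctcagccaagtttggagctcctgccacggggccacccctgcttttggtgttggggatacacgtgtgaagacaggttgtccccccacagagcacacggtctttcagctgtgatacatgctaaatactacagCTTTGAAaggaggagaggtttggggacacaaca
This peak had 24.8 and 17.6 in the old and 24.8 and 14.8 in the young samples, a spread within each group that exceeded the difference between them.

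Ctnnb1, which encodes beta-catenin, had a promoter peak with 101 and 126 in the old and 104 and 102 in the young samples, and these overlapped. At the promoter of Tcf7, which encodes TCF1, values were 40.7 and 40.7 in the old and 33.3 and 32.8 in the young samples. Its groups were apart, but the log2 fold change was 0.29 (SE 0.22, adjusted p = 0.535). Lef1, which encodes a partner of beta-catenin in transcription, was higher in old MSCs at all 3 of its peaks. Its promoter had 92.9 and 82.8 in the old and 78.9 and 66.1 in the young samples (log2 fold change 0.28, SE 0.19, adjusted p = 0.485). The Lef1 intronic peak chr3:131196001-131196500 had the most positive log2 fold change of the 208 peaks, 1.04 (SE 0.40, adjusted p = 0.202), at low values of 6.42 and 8.19 in the old and 4.29 and 2.07 in the young samples. The log2 fold change was 0.64 without young replicate 2.

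Tcf7l1 and Tcf7l2, which encode TCF3 and TCF4, are long genes with 28 and 23 peaks, the most of the 44 genes, and their peaks moved both ways. At the Tcf7l1 promoter, the second densest of the 44 genes in the young samples, with 50.6 and 56.7 per kb in the old and 56.7 and 55.8 per kb in the young samples, the groups overlapped. An intronic peak of Tcf7l1 (chr6:72704901-72705400) had 2.57 and 4.25 in the old and 7.59 and 7.38 in the young samples (log2 fold change -0.97, SE 0.38, adjusted p = 0.208). Within Tcf7l2, intronic peaks held differences of opposite sign. The peak chr19:55784701-55785500 had 10.3 and 11.2 in the old and 3.63 and 6.50 in the young samples (log2 fold change 0.99, SE 0.35, adjusted p = 0.161). Near it, chr19:55777801-55780400 had 23.5 and 35.8 in the old and 18.5 and 14.2 in the young samples (log2 fold change 0.81, SE 0.27, adjusted p = 0.14). Further along the gene, chr19:55820101-55820800 had 5.99 and 1.82 in the old and 8.91 and 7.68 in the young samples (log2 fold change -1.06, SE 0.42, adjusted p = 0.217), and the log2 fold change was -0.40 without old replicate 2 and -1.74 without old replicate 1. The first pair was higher and the last lower in both old samples, an order that the rule naming these peaks required. Over all its peaks Tcf7l2 had 16 higher and 7 lower, and Tcf7l1 17 higher and 11 lower. The direction at Tcf7l2 came mainly from old replicate 2, with medians of 0.32 and 0.32 against young replicates 1 and 2. For old replicate 1 the Tcf7l2 medians were 0.070 and 0.016.

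**Figure D3:**
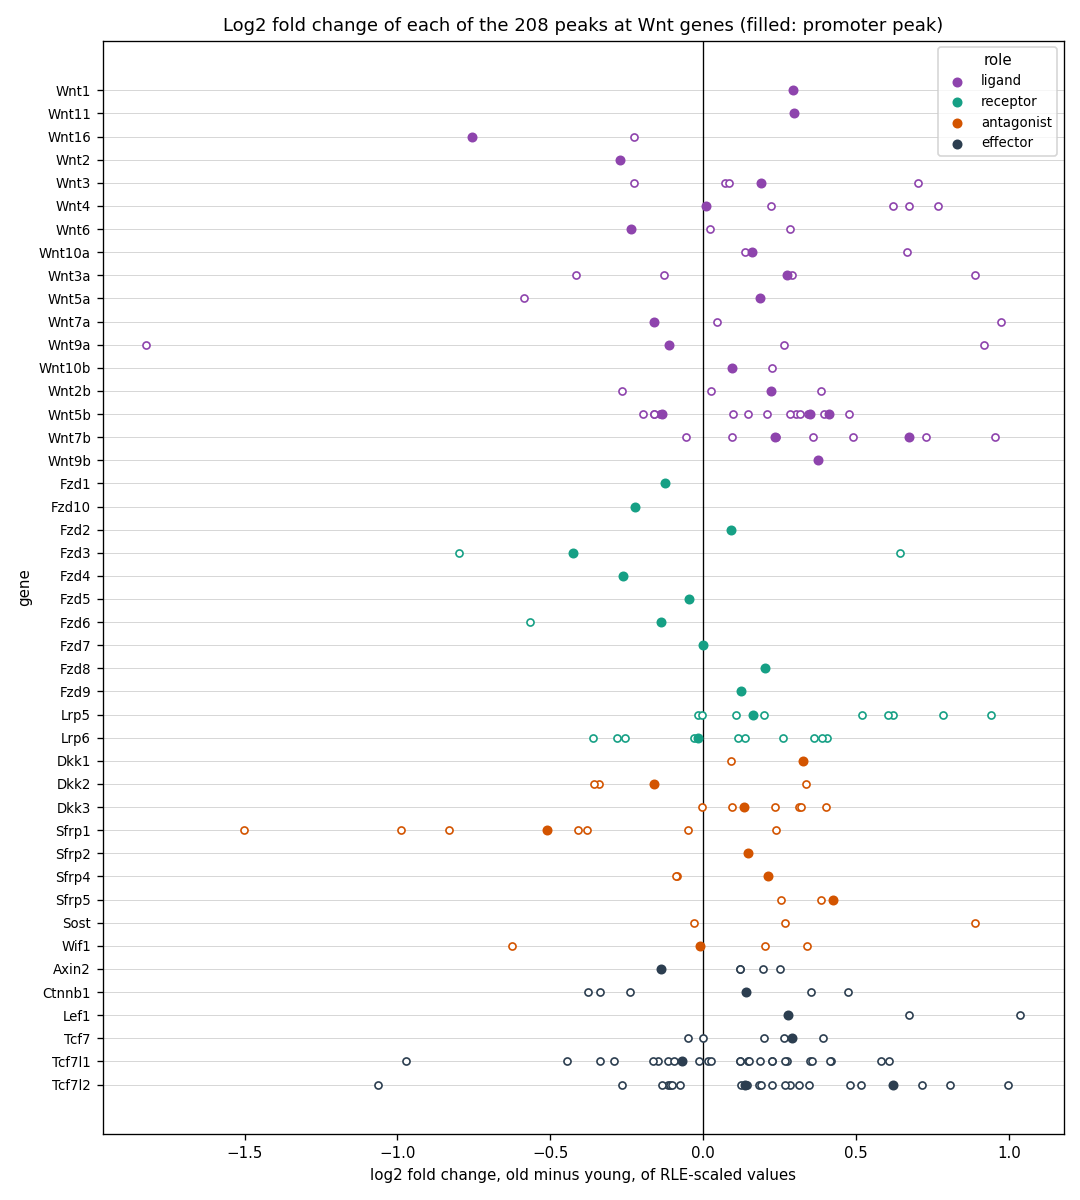
Log2 fold change (old minus young, RLE-scaled values) of each of the 208 peaks by gene, ligands in violet, receptors in green, antagonists in orange and effectors in dark blue, with promoter peaks filled. Most points lie between -0.5 and 1, with Sfrp1 peaks reaching -1.50 and 1 peak of Wnt9a at -1.82.

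Across the 44 genes, 43 had a promoter peak within 1 kb of a protein-coding start, and the density of the densest such peak in young MSCs ranged from 7.03 per kb at Sfrp5 to 58.9 per kb at Fzd5. The order of genes by density was led by Fzd5 and Tcf7l1, and many neighbours in it did not differ by more than the spread of their samples. By gene sums, 29 genes had a higher and 15 a lower value in old MSCs, and 4 of the 44 (9.09%) had an unadjusted p under 0.05, against 8.33% of all genes tested (Sfrp1 and Fzd3 lower, Wnt7b and Wnt4 higher).

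**Figure D4:**
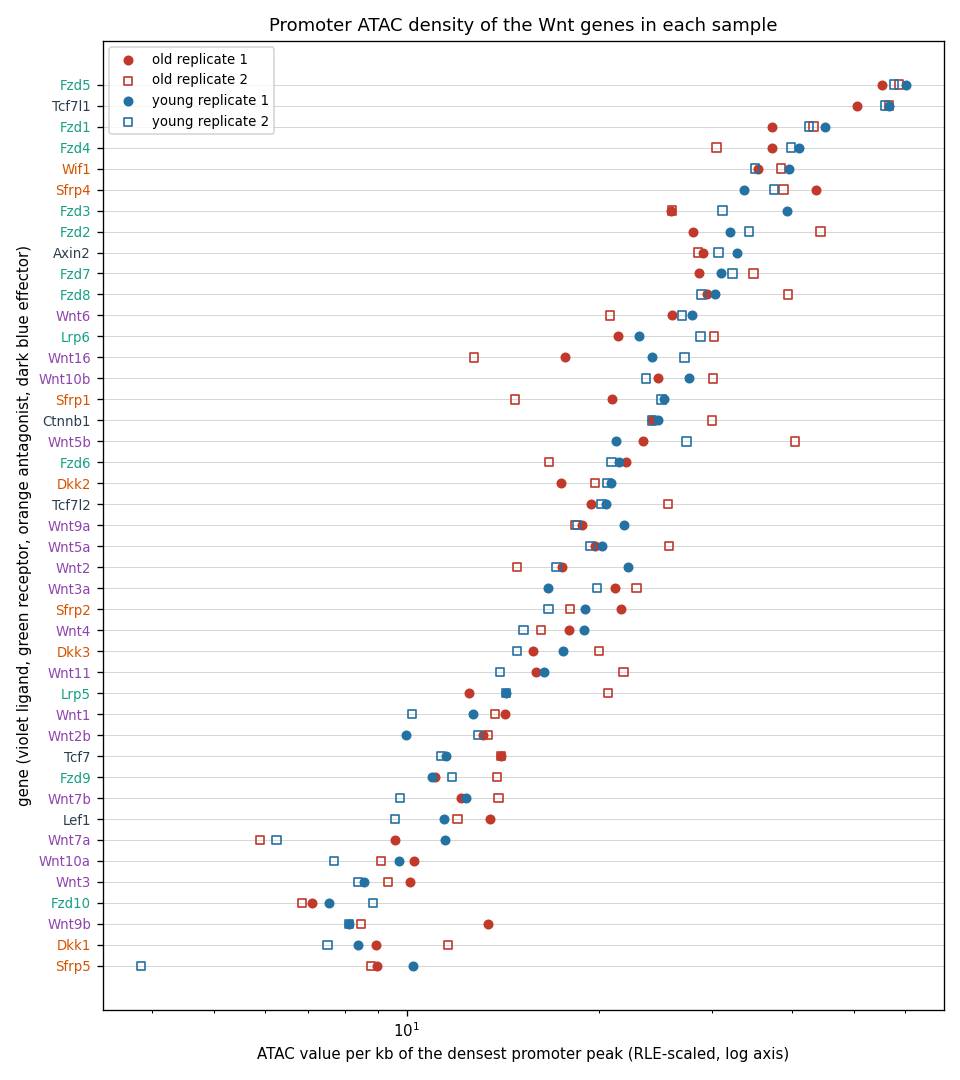
ATAC value per kb (RLE-scaled, log axis) of the densest promoter peak of each of the 43 genes in the 4 samples, with old samples in red and young in blue, sorted by the young mean. Densities run from under 10 to about 60 per kb, and the spread between genes is much wider than that between old and young samples, with red points below the blue ones at Wnt16, Sfrp1 and some other genes.

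Relative to the typical peak, the peaks at Wnt genes had somewhat higher values in old MSCs. Their median log2 fold change was 0.15, against 0.0011 over all peaks and 0.021 over the peaks of all protein-coding genes. The share of lower peaks was 36.1%, against 49.9% of all peaks. In 68 peaks (32.7%) both old samples were above both young ones, against 23.2% of all peaks. This shift was uneven between the old samples. The median was 0.028 and 0.087 for old replicate 1 against young replicates 1 and 2, and 0.17 and 0.22 for old replicate 2, the sample with the smallest mitochondrial share. Summed over the 208 peaks, values were 9847 and 10983 in the old and 10082 and 9899 in the young samples, and the groups overlapped (p = 1 by the exact permutation test). On the values as deposited, the median was -0.13 and 67.3% of the peaks were lower, against -0.27 and 74.6% over all peaks.

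**Figure D5:**
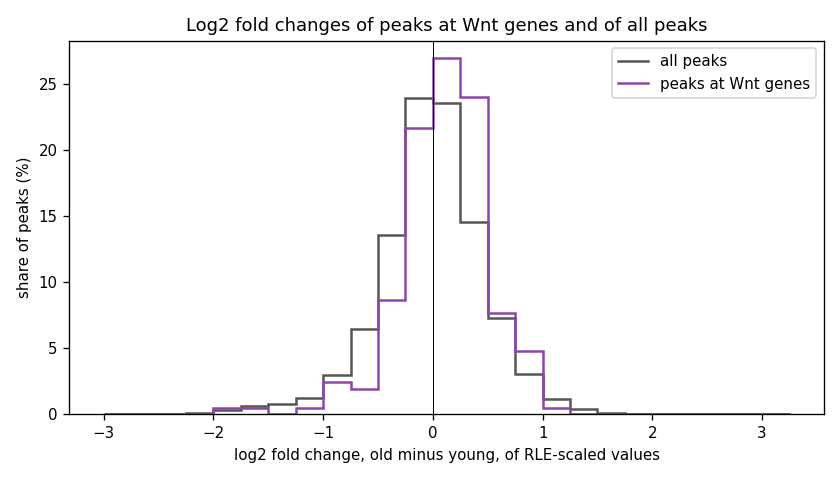
Share of peaks (%) in bins of log2 fold change (old minus young, RLE-scaled values) for the 208 peaks at Wnt genes (violet) and for all 117282 peaks (grey). The violet outline is shifted to the right by the difference of the medians, 0.15 against 0.0011, and its left tail is thinner between -0.75 and -0.25.

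By position in the gene, the median log2 fold change of the 122 intronic peaks was 0.19, against 0.024 over all intronic peaks, and that of the 20 peaks over coding exons was 0.25, against 0.11 over all peaks in exons. The 47 promoter peaks had a median of 0.13, against -0.027 over all promoter peaks. The 9 upstream peaks had a median of -0.030, and no difference between positions was tested. Peaks at Wnt genes were wider than all peaks, with a median of 1900 against 1200 bp, and richer in G and C, with a median of 50.7% against 46.1%. A TCF/LEF word stood in 69.7% of them and in 63.3% of all peaks, but per kb of sequence the words were fewer, 0.735 against 0.839. The median log2 fold change was 0.11 after correction for GC content and width.

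Another 51 genes of the pathway, among them receptors of R-spondins, kinases, scaffolds and co-repressors, held 331 peaks at 50 genes, with 0 peaks past an adjusted p under 0.01 and a median log2 fold change of -0.021. At an adjusted p under 0.05, 9 of these peaks differed, where 1.12% of all peaks did, 4 lower and 5 higher in old MSCs. With variances moderated without a trend and without robustness, 0 of all peaks passed this threshold, these 9 included. At Lgr5, a receptor of R-spondins and a stem cell marker in several tissues, 2 adjoining intronic peaks were lower. The peak chr10:115548801-115550400 had 5.99 and 3.64 in the old and 14.2 and 18.9 in the young samples (log2 fold change -1.61, SE 0.33, adjusted p = 0.0287), and chr10:115548101-115548800 had 18.4 and 11.8 in the old and 29.7 and 37.5 in the young samples (log2 fold change -1.12, SE 0.27, adjusted p = 0.049). Old and young samples were well apart at both.

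The other lower peaks were in introns of Rspo2, an R-spondin ligand, with 3 and 4 counts in the old and 20 and 23 counts in the young samples, and of Lgr4, with 1 and 0 counts in the old and 10 and 17 counts in the young samples. Lgr6, the remaining receptor of this family, ran in the opposite direction at 2 peaks near its end, with 21.8 and 35.2 in the old and 10.2 and 9.15 in the young samples at the stronger difference (log2 fold change 1.43, SE 0.29, adjusted p = 0.0256). Higher intronic peaks were also found in Gsk3b, the kinase that marks beta-catenin for degradation, with 34.2 and 38.8 in the old and 14.9 and 15.6 in the young samples (log2 fold change 1.21, SE 0.24, adjusted p = 0.0256). The others were in Vangl1 and Ryk of the non-canonical branch, with log2 fold changes of 1.21 (SE 0.24, adjusted p = 0.0251) and 1.23 (SE 0.25, adjusted p = 0.0287). The R-spondin gene and its receptors held 6 of the 9 peaks, 4 lower and 2 higher, a grouping made after the values were seen.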

How the data were processed

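ATAC-seq values of 2 old and 2 young MSC samples were analysed. According to the methods, reads were mapped to mm10 with Bowtie2, duplicates were removed with Picard, and peaks and their values came from chromstaR; this is described for hypoxia- and normoxia-cultured cells. The authors deposited a value per peak and sample under the name RPKM, made from reads in peaks and scaled to the library total, and these deposited values are treated as a score. In each sample 100% of them were whole multiples (within 0.01 counts) of a single step regardless of peak width, so they follow counts and are not per length. That the counts were scaled to 10000000 of the library total was assumed and not tested. Whether these counts equal reads was not tested.

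Values were divided by RLE factors (0.817 and 1.01 for old, 1.07 and 1.15 for young samples), and log2(value + 1) was tested with limma 3.58.1 in R 4.3.3 (trend and robust moderation) on all 117282 peaks with Benjamini-Hochberg adjustment. Fold changes on this scale understate the change of low values. Gene sums were tested in the same way. Part of the blood marker list is not reported here. The limma step was tested on simulated data. Genes and UTRs came from GENCODE M21 (GRCm38). Tables and figures were made with Python 3.11.15, pandas 2.3.3, scipy 1.17.1 and matplotlib 3.10.9.

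The genes, lists and tests were chosen with earlier results of these data known. Named in the text were peaks past an adjusted p under 0.05, the 8 most negative and the 8 most positive peaks among those with a mean of at least 5 and the same direction in all 4 pairs of samples, the 2 genes of each role with the densest promoter in young samples, the 3 genes with the most peaks, and the promoters of 18 chosen genes. Further peaks of Sfrp1, Wnt7b, Fzd3 and Axin2 and those of other pathway genes were named after their values were seen. Tried as alternatives were 3 scalings, pseudocounts of 0.1 and 5, a filter on low values, plain moderation, a replicate block, limma-voom, other gene windows, a correction for GC content and width, and leaving out each sample; leaving out the genes on chromosome 11, and Tcf7l1 and Tcf7l2, and 2 further fits of the pathway list were added after seeing the data.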

Additional observations from a re-analysis of the deposited data

How the results depend on the processing

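With 2 samples per group, few differences could be separated from the spread between samples, and values near 1 rest on about 3 counts. On the values as deposited, 2 peaks at Wnt genes and 4 at other pathway genes were lower at an adjusted p under 0.01, where 1.14% of all peaks were. The median log2 fold change turned to -0.13 (67.3% lower), with -0.072 for ligands, -0.19 for receptors, -0.17 for antagonists and -0.10 for effectors, all above the -0.27 of all peaks. Unlike the RLE scaling, this scale does not set the typical peak to no change. Whether the lower value of the typical peak in old MSCs was biological or technical was not tested. On that scale promoter values also turned at Sfrp2 (-0.14), Sfrp4 (-0.076), Ctnnb1 (-0.15), Lef1 (-0.0088), Wnt10b (-0.19), Wnt3a (-0.013), Wnt4 (-0.27), Wnt5a (-0.10), the outer start of Wnt7b (-0.047) and Lrp5 (-0.12). Under quantile normalization Wif1 turned to 0.0097, Fzd5 to 0.013 and Lrp6 to 0.015. With equal total signal Wif1 turned to 0.010 and Lrp6 to 0.0050. None of the promoters that turned differed in the main test (limma, adjusted p under 0.05). For the count of lower peaks at Wnt genes, limma-voom on the recovered counts and a threshold of 0.05 each gave 1 in place of 0. For the pathway list the threshold of 0.05 gave 4 lower and 5 higher.

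Same-numbered old and young samples did not deviate together (correlation -0.0993), so the numbers were not taken to pair them. The fit with a replicate block called 1 lower peak, the end of Sfrp1, and at other pathway genes 3 lower and 4 higher; it called 0 of the 44 genes. Over all peaks this fit called 0.773% lower and 0.309% higher.

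When each sample was left out in turn, the median ranged from 0.070 to 0.20 and the share lower from 30.8% to 42.3%, with ligands from 0.13 to 0.23, receptors from -0.082 to 0.27, antagonists from -0.027 to 0.11 and effectors from 0.064 to 0.27. Calls ranged from 0 to 7 lower and 0 to 12 higher peaks, and from 0 to 3 lower and 0 to 9 higher genes. The highest counts came without old replicate 1, while 4 lower and 1 higher peak and 1 lower and 1 higher gene were called without old replicate 2, and 0 without either young sample. Without old replicate 1, 5.52% of all peaks were called lower and 3.31% higher, and 10.4% and 11.9% of all genes; without old replicate 2 these shares were 1.00% and 0.428% of peaks and 1.00% and 0.659% of genes. The fits without a young sample called few or none of all peaks and genes as well. The group left with 1 sample was assumed to vary like the other, so these counts are not a result about Wnt genes. Promoter values that turned ranged from -0.10 to 0.072 at Wif1, -0.0064 to 0.29 at Ctnnb1, -0.14 to 0.0088 at Tcf7l1, -0.041 to 0.23 at Wnt10b, -0.15 to 0.16 at Wnt4, -0.18 to 0.51 at Lrp5 and -0.25 to 0.23 at Lrp6. Quantile normalization, equal total signal, both pseudocounts, the filter, plain moderation and both other gene windows left the count of called peaks at Wnt genes at 0. Plain moderation called 0 of all 117282 peaks. The others called at most 0.046% of all peaks lower and 0.0358% higher, so these counts of 0 do not show stability. The overall median kept its direction under all of these settings, under limma-voom, after correction for GC content and width, and without the genes on chromosome 11 or Tcf7l1 and Tcf7l2. The role medians kept theirs under quantile normalization, equal total signal, both pseudocounts and the block. The planned edgeR test was not run; limma-voom on the same recovered counts took its place.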
